A study of Mus musculus with 6 samples.

Results

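The smooth muscle contractile genes were taken as 10 genes: the actins Acta2 and Actg2, the myosin genes Myh11 and Myl9, the kinase gene Mylk, the thin-filament genes Tpm1, Tpm2, Cnn1 and Tagln, and the intermediate filament gene Des. All probe sets that the platform annotation assigns to one of them were used, which gave 11 of the 12488 probe sets on the array, 2 of them for Tpm2. They were compared between pancreases of Cftr-null (CFTR-/-) mice, called CF here, and of CFTR+/+ control mice, with 3 arrays per group and 1 male mouse per array. CF mice were 56 to 58 days old and control mice 56 to 57 days. Every mouse, controls included, was heterozygous for gastrin (gastrin+/-), had a background of 95% black6 and 5% 129Sv, and received the diet Peptamen from day 10 against intestinal obstruction. The labels name no tissue to which the loss of Cftr was limited, so the comparison does not separate its loss in the pancreas from that in other organs.

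Smooth muscle shortens when myosin pulls on actin filaments. Calcium acts through calmodulin on the myosin light chain kinase Mylk, which phosphorylates the regulatory light chain Myl9. Tropomyosins and calponin lie along the actin filament and modulate the pull. In the pancreas these genes are known from the walls of blood vessels and larger ducts, and Acta2 also from pericytes and from stellate cells, the matrix-producing cells of the gland, once these are activated. Many of the genes are driven by serum response factor, which binds a DNA element called the CArG box.

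The arrays gave 1 intensity per probe set on a linear scale, with array medians of 207.8 to 234.4 in CF and 211.6 to 233.3 in controls. Intensities under 47.6, the pooled 20th percentile, were raised to it before log2. A probe set was tested if at least 3 arrays exceeded 140.2, the pooled 40th percentile, and 7739 probe sets met this. Levels of different probe sets cannot be compared with each other, since each has its own brightness. Replicate 1, 2 and 3 of each group share a title suffix and were taken as pairs from the arrays' own deviations. Control replicate 1 is described as made from the entire pancreas, and the other 5 arrays simply as pancreas. Genes of acinar cells, the enzyme-making bulk of the gland, were bright on all arrays: the summed intensity of 9 such genes was 663440 to 746330 in CF and 701690 to 969360 in controls.

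Of the 11 probe sets, 8 for 8 genes were bright enough to be tested and 3 were not, namely those of Myh11, Cnn1 and the dimmer one of Tpm2. Acta2 read far lower in CF on all 3 arrays, Mylk read somewhat lower on all 3, and Cnn1 read higher on all 3 at very low intensities. Actg2, Tagln, Tpm1, Tpm2, Des, Myl9 and Myh11 overlapped between the groups. In limma, 0 of the 8 tested members passed an adjusted p of 0.05 (Benjamini-Hochberg over all 7739), where 5 of 7739 probe sets (0.0646%) passed. The 5 became 10 with the replicate number as a block, which left the members at 0. At an unadjusted p under 0.05 in limma there was 1 member, Acta2, among 571 probe sets (7.38%). With the block there were 3 members, Acta2 and Mylk lower and Myl9 higher in CF, among 908 of the 7739 probe sets. Of the tested members 5 were lower and 3 higher in CF, with a median log2 difference of -0.23, beside 0.00 for all tested probe sets, of which 49.9% were lower. The filter bears on these counts: Acta2 passed it through its 3 control arrays alone, with 0 CF arrays above the bound, and Myl9 through 3 CF arrays and 1 control array.

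**Figure D1:**
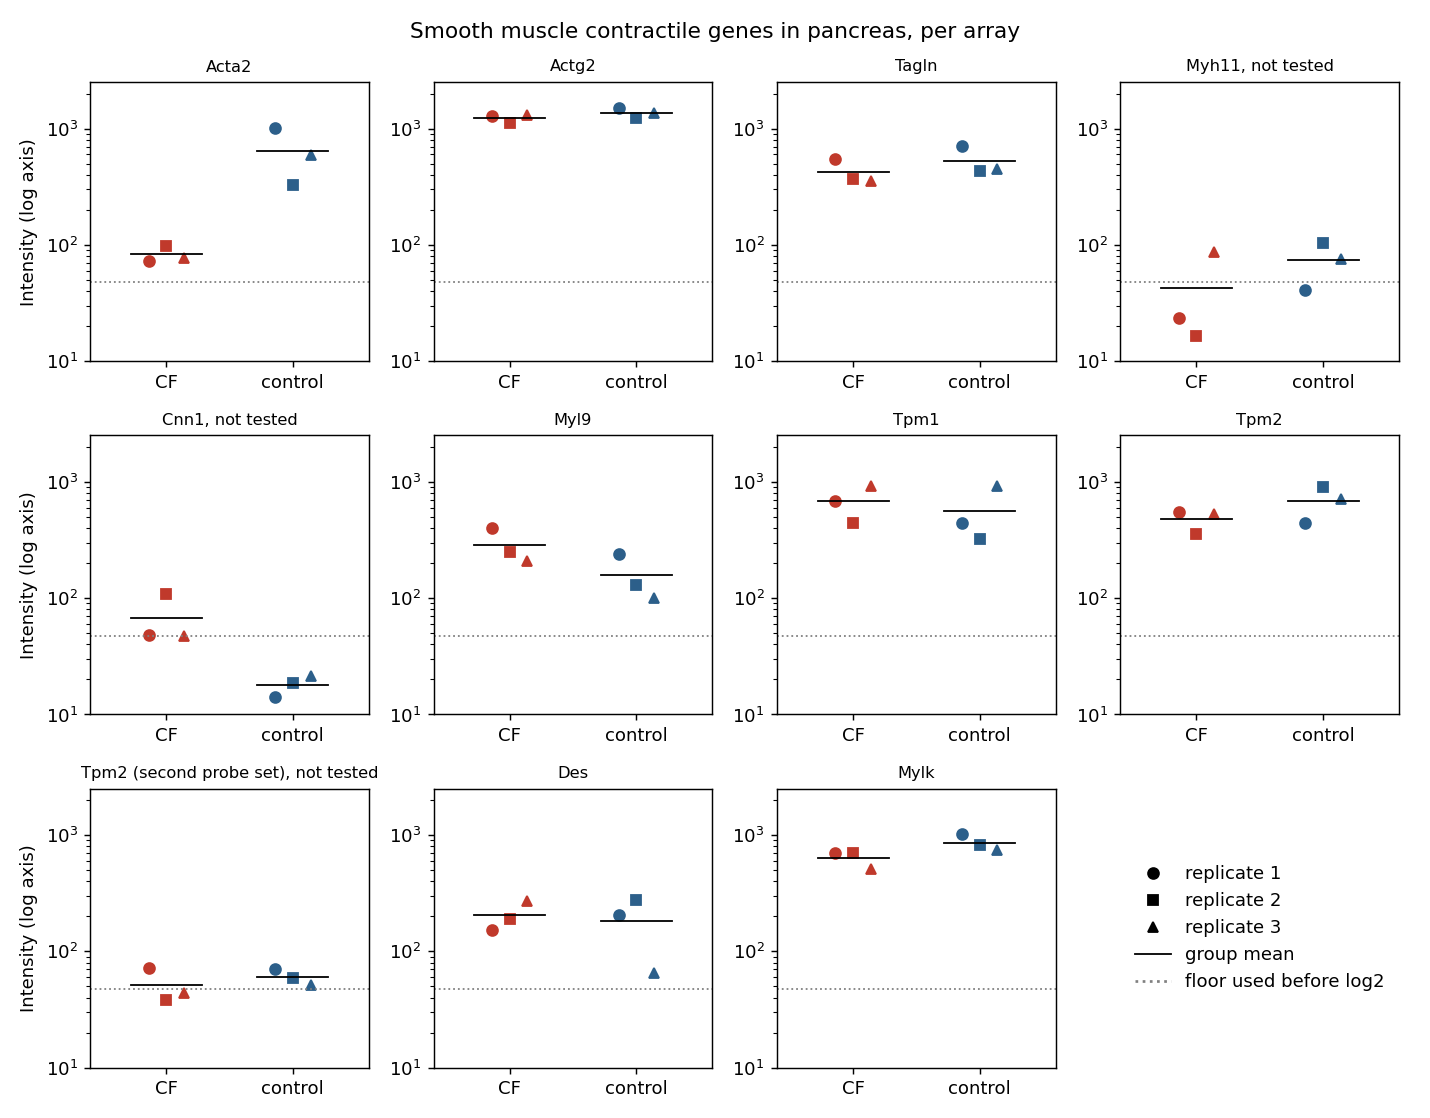
Intensity of each of the 11 probe sets (log axis) on the 3 CF arrays (red) and the 3 control arrays (blue), with a bar at the group mean and a dotted line at the floor of 47.6 used before log2. The 3 CF arrays of Acta2 lie between 73.1 and 98.7, below all 3 control arrays (330.4 to 1007), while most other members overlap.

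Acta2 encodes smooth muscle alpha actin, the thin-filament actin of vascular smooth muscle and the usual marker of activated stellate cells. Its probe set, 93100_at, read 73.1, 98.7 and 76.7 in CF replicates 1, 2 and 3, against 1007, 330.4 and 589 in control replicates 1, 2 and 3. The CF values lay close together and the control values spread over a 3-fold range, with no overlap. The means were 82.8 ± 13.9 in CF and 642 ± 341 in controls (SD, n = 3 each). The log2 difference was -2.82 ± 0.44 (SE; 95% interval -3.83 to -1.82), 7.08-fold lower in CF, and limma gave an adjusted p of 0.082, or 0.17 with the replicate block. It therefore did not pass in either fit. By p it stood 14th of the 7739 probe sets, a set that it entered through its control arrays alone, so nothing is read from the rank. With no filter its adjusted p in limma was 0.37. All CF values lay between the floor and the bound for testing, so the size of the fold depends on how dim values are treated: with the floor raised to 140.2 the log2 difference was -2.05 (adjusted p = 0.12). Without control replicate 2, the lowest control, it passed at -3.23 (adjusted p = 0.037). Without control replicate 1, the array labelled as entire pancreas, it was -2.43 (adjusted p = 0.29). Because the RNA came from bulk tissue, fewer Acta2-expressing cells and less Acta2 RNA per cell cannot be told apart.

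**Figure D2:**
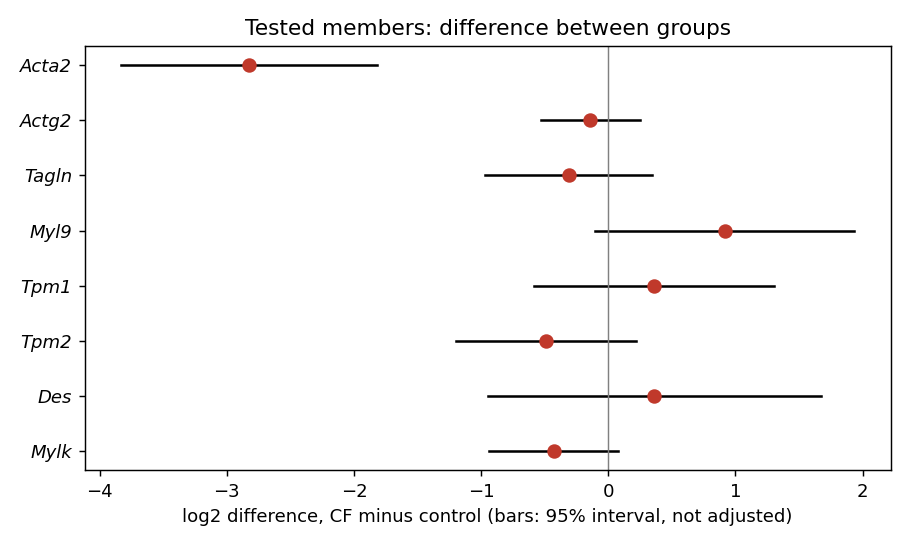
Log2 difference, CF minus control, of the 8 tested members, with 95% intervals from limma that are not adjusted for the number of tests. Acta2 lies at -2.82 with an interval from -3.83 to -1.82, and the intervals of the other 7 members include 0.

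The window upstream of Acta2 is shown because CArG boxes in it are the known sites of serum response factor on this gene, and that of Myl9 because, among the members searched, it is the other one with such elements. RefSeq promoter windows of assembly GRCm38.p6 (300 bases, the last 50 after the transcript start) were found for 7 members, namely Acta2, Cnn1, Myl9, Tpm1, Tpm2, Des and Mylk. A CArG box was read as CC, then 6 bases of A or T with at most 1 exception, then GG, which covers both strands. It stood in 2 of the 7 windows, and in 9.98% of all 32851 windows (1.63% with no exception allowed). The 250 bases before the start are printed 5′ to 3′ with the CArG boxes in capitals. They lie on chr19:34255374-34255623, minus strand, for Acta2 and on chr2:156775214-156775463, plus strand, for Myl9.
Acta2: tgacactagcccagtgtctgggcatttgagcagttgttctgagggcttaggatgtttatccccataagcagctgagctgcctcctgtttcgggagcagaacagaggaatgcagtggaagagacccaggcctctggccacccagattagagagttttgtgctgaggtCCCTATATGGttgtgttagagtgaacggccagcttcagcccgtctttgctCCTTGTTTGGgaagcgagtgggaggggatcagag
Myl9: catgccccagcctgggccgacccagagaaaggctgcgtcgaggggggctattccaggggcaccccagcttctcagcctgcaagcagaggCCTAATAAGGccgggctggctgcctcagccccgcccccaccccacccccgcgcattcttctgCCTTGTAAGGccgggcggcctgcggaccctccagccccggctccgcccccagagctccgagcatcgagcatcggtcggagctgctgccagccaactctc

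In these windows the Acta2 boxes began 84 and 34 bases before the start in the table, and the Myl9 boxes 161 and 99 bases before it. Only the first Myl9 box, of these 4, had A or T at all 6 inner positions. The windows of Cnn1, Tpm1, Tpm2, Des and Mylk held no CArG box as defined here, which says nothing about elements elsewhere in those genes.

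Actg2 encodes smooth muscle gamma actin, the isoform typical of visceral muscle. Its probe set, 93102_f_at, carries the suffix that marks probes shared by members of a sequence family, and how far it reads other actins was not measured. It read 1273, 1112 and 1308 in CF replicates 1, 2 and 3, against 1489.6, 1228 and 1355 in control replicates 1, 2 and 3. The groups overlapped and the values stayed within a narrow range on all 6 arrays. The log2 difference was -0.14 ± 0.17 (95% interval -0.53 to 0.25, adjusted p = 0.90 in limma).

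Other actins gave a comparison within the gene family. The cytoplasmic actin genes Actb and Actg1 averaged 3520 ± 425 and 9877 ± 555 in CF and 3442 ± 283 and 8659 ± 804 in controls. Cardiac actin Actc1, read by a family probe set, averaged 566 ± 39.6 in CF and 544.5 ± 273 in controls, and the skeletal actin Acta1 was too dim to test at 29.3 in CF and 34.4 in controls. Within each array, the log2 ratio of Acta2 to each of Actb, Actg1, Actc1 and Actg2 was lower on all CF arrays than on all control arrays, with differences between the group means of -2.85, -3.02, -2.99 and -2.68. The same held against the tested members Tagln (-2.51), Mylk (-2.39), Tpm2 (-2.33), Tpm1 (-3.18), Des (-3.19) and Myl9 (-3.74). All 10 ratios share the Acta2 values, which did not overlap by themselves, so they are given as a description with no test.

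Mylk, the kinase that starts contraction, read 700.5, 705 and 515 in CF replicates 1, 2 and 3, against 1020.1, 828 and 736 in control replicates 1, 2 and 3. All CF values lay below all control values, the nearest values being 705 in CF and 736 in controls. The log2 difference was -0.43 ± 0.22 (95% interval -0.94 to 0.08, adjusted p = 0.72 in limma). Acta2 and Mylk were thus 2 of 8 tested members with all CF arrays below all control arrays, beside 5.62% of the tested probe sets. Acta2 entered this count only through its control arrays, so nothing is read from the share. The gene of its substrate, Myl9, read 399, 250.2 and 209 in CF replicates 1, 2 and 3, against 241, 129 and 99.8 in control replicates 1, 2 and 3. CF replicate 3 lay below control replicate 1, so the groups overlapped. The Myl9 log2 difference was 0.91 ± 0.45 (95% interval -0.10 to 1.93, adjusted p = 0.70 in limma), and the CF array of each pair was the higher one, by 0.73, 0.95 and 1.06. With the replicate block its adjusted p was 0.37.

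The thick-filament gene Myh11, the smooth muscle myosin heavy chain and one of the most specific markers of mature smooth muscle, was too dim to test. It read 23.8, 16.5 and 87.5 in CF replicates 1, 2 and 3, against 41.2, 104 and 75.9 in control replicates 1, 2 and 3. Of these, 2 CF values and 1 control value lay under the floor, and the groups overlapped. Cnn1, the calponin of differentiated smooth muscle, read 47.8, 107.5 and 47.5 in CF replicates 1, 2 and 3, against 14, 18.6 and 21.3 in control replicates 1, 2 and 3. Its CF values all exceeded its control values, but all 3 control values and 1 CF value lay under the floor, and it was not tested in limma. With Acta2 and Mylk it made 3 of 11 member probe sets whose groups did not overlap in either direction, beside 11.6% of the 12422 probe sets other than control ones. Another defining marker, the smoothelin gene Smtn, averaged 34.4 ± 2.03 in CF and 39.5 ± 16.8 in controls, with both means under the floor. Myh11, Cnn1 and Smtn, defining markers of mature smooth muscle, thus stayed below the bound for testing on all 6 arrays, and these arrays say little about them.

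Tagln encodes transgelin (SM22 alpha), an actin-binding protein abundant in smooth muscle. It read 546, 372.5 and 353 in CF replicates 1, 2 and 3, against 707, 436 and 447 in control replicates 1, 2 and 3. Replicate 1 was the highest of both groups, the groups overlapped, and in each pair the CF array was lower. The log2 difference was -0.31 ± 0.29 (95% interval -0.97 to 0.35, adjusted p = 0.87 in limma). It lay within the spread of the arrays, and a difference of the size seen for Acta2 was outside this interval.

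The tropomyosins Tpm1 and Tpm2 are made in muscle and in many other cells through alternative splicing, and the isoforms that the probe sets read were not determined here. Tpm1 read 681, 445 and 918 in CF replicates 1, 2 and 3, against 439.9, 324 and 928 in control replicates 1, 2 and 3. Replicate 3 was the highest of both groups and replicate 2 the lowest, and the log2 difference was 0.36 ± 0.41 (95% interval -0.58 to 1.30, adjusted p = 0.90 in limma). Tpm2 read 549.5, 359 and 525 in CF replicates 1, 2 and 3, against 442, 911 and 709.6 in control replicates 1, 2 and 3, with a log2 difference of -0.49 ± 0.31 (95% interval -1.20 to 0.22, adjusted p = 0.79 in limma). Its pairs disagreed, at 0.31 for replicate 1, -1.34 for replicate 2 and -0.44 for replicate 3. The second Tpm2 probe set was dim, at 51.1 ± 18.1 in CF and 60.3 ± 9.31 in controls.

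Des encodes desmin, the intermediate filament protein of muscle, also used as a marker of quiescent stellate cells. It read 151, 189.8 and 269.6 in CF replicates 1, 2 and 3, against 204, 275.5 and 64.6 in control replicates 1, 2 and 3. Control replicate 3 was the lowest of the 6 arrays and set the sign: the log2 difference was 0.36 ± 0.58 (95% interval -0.95 to 1.67, adjusted p = 0.93 in limma), and -0.26 without that array.

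**Figure D3:**
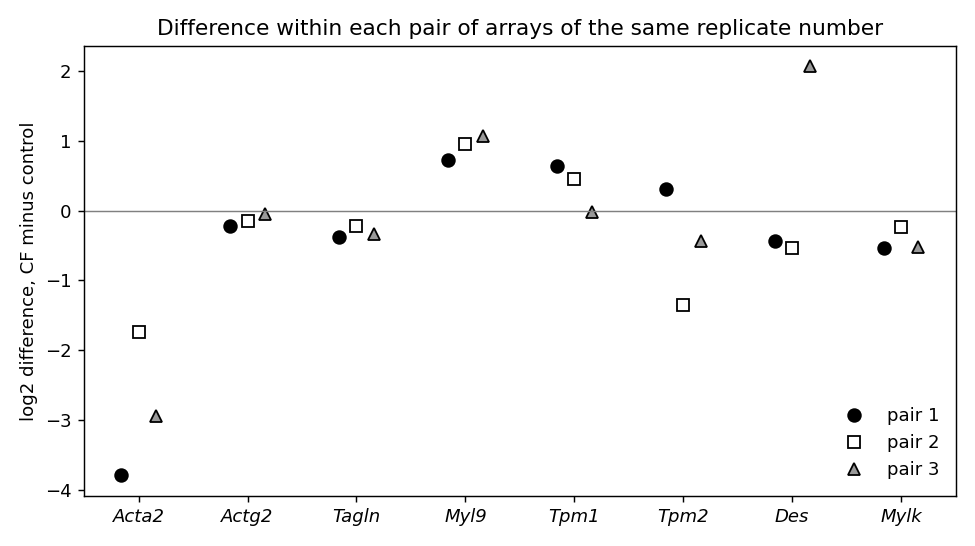
Log2 difference, CF minus control, within each of the 3 pairs of arrays of the same replicate number, for the 8 tested members. Acta2, Actg2, Tagln and Mylk lie below 0 in 3 of 3 pairs, Myl9 lies above 0 in 3 of 3 pairs, and Tpm1, Tpm2 and Des differ in sign between pairs.

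The members did not vary as one block across the arrays. Over the 6 arrays, 5 of 28 pairs of tested members had a Pearson correlation of log2 intensity above 0.5, and 16 pairs were below 0. All 5 were among the 6 pairs within Acta2, Actg2, Tagln and Mylk, a set picked with the data known. The highest were Acta2 with Mylk (r = 0.79), Tagln with Mylk (0.79) and Actg2 with Tagln (0.70). The lowest were Tpm1 with Mylk (-0.65) and Myl9 with Tpm2 (-0.65), and Acta2 with Myl9 stood at -0.56. These correlations describe 6 arrays that share the group difference, the title suffixes and the scaling, and carry no test. Actg2, Tagln and Mylk, like Acta2, were highest in control replicate 1. The mean centred log2 level of the 8 members was -0.05, -0.29 and -0.14 in CF replicates 1, 2 and 3, against 0.41, 0.06 and 0.01 in control replicates 1, 2 and 3. The separation of the groups in this mean rested on Acta2: without it, a comparison chosen after seeing the data, the mean of the other 7 was 0.17, -0.16 and 0.06 in CF replicates 1, 2 and 3, against 0.15, -0.01 and -0.20 in control replicates 1, 2 and 3, which overlap.

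Among 5796 other named genes, those with the profile most like that member mean over the 6 arrays were Limk1, a kinase that stabilises actin filaments by inhibiting cofilin (r = 0.99), the myelin gene Pmp22 (0.98), Arhgdib (0.98), Ntpcr (0.98), the vascular and fat cell amine oxidase Aoc3 (0.97), Washc2 (0.97), Msn, which links actin to the membrane (0.97), and the complement inhibitor Serping1 (0.96). Their log2 differences ran from -1.18 for Aoc3 to -0.25 for Ntpcr, and 0 of the 8 passed in limma (adjusted p = 0.51 to 0.87). Most like Acta2 alone were Gstm1 (0.99), Znfx1 (0.99), the synuclein gene Sncg (0.99) and Mpp1 (0.98), with log2 differences of -0.57, -2.25, -0.86 and -0.78 and adjusted p of 0.25 to 0.37 in limma. Gstm1 and Sncg are read by probe sets whose suffix marks probes shared within a sequence family. With this many genes and 6 arrays, high correlations arise readily, and they are given as a description. The contrast between the groups in the member mean is that of Acta2: with the mean of the other 7 members the same 8 genes correlated at 0.34 (Serping1) to 0.68 (Washc2).

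Of 40 genes for contractile regulators and thin-filament partners, 27 were on the array and 16 were tested. In limma 0 passed, 8 were lower and 8 higher in CF, and the median log2 difference was 0.00. The smallest p belonged to the calmodulin gene Calm2 (-0.94 ± 0.42), the caveolin gene Cav1 (-1.02 ± 0.60), the actin crosslinker Actn1 (0.28 ± 0.18) and the GTPase Rhoa (0.20 ± 0.18). Cav1 is made by fat and endothelial cells as well as smooth muscle, and read 544 ± 124 in CF and 1406 ± 969 in controls.

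Of 33 genes around serum response factor and myocardin, 13 of the 24 on the array were tested, 0 passed in limma (1 at an unadjusted p under 0.05), 7 were lower and 6 higher, with a median of -0.04. The genes of serum response factor (Srf) and myocardin (Myocd) themselves were not among the 24, so they were not examined. Klf4, a repressor of smooth muscle genes, read 331 ± 91 in CF and 666 ± 193 in controls (log2 difference -1.0 ± 0.32, adjusted p = 0.50). Mrtfa, a coactivator of serum response factor, read 100.6 ± 71 in CF and 232 ± 94.8 in controls (-1.32 ± 0.59, adjusted p = 0.67). The growth factor gene Pdgfb and the transcription factor gene Mef2d differed by -0.51 ± 0.32 and -0.26 ± 0.16.

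Among non-muscle relatives of the members, 11 of 13 genes were tested, 0 passed in limma, and 10 of the 11 were higher in CF by small amounts (median 0.12). The lowest p belonged to the myosin heavy chain gene Myh14 (0.66 ± 0.41), Actg1 (0.19 ± 0.14), Tagln2 (0.16 ± 0.16) and the filament gene Vim (-0.57 ± 0.60), the single one that was lower. Striated muscle genes, which would mark stray skeletal or cardiac muscle, were tested for 16 of 31 genes. Of these 0 passed in limma (1 at an unadjusted p under 0.05), 8 were lower and 8 higher (median 0.03), led by the troponin gene Tnnc2 (-1.31 ± 0.42), Myl4 (-0.52 ± 0.28), Tnni3 (1.29 ± 0.72) and Casq1 (0.57 ± 0.44).

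**Figure D4:**
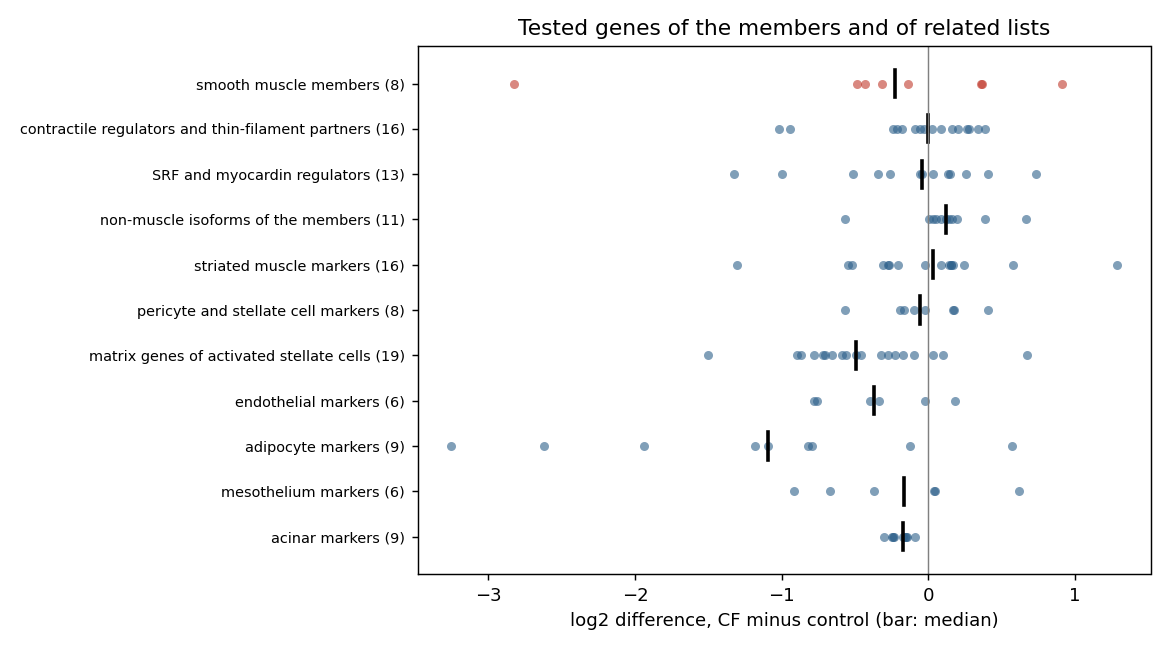
Log2 difference, CF minus control, of each tested gene, for the 8 members (red) and for 10 lists of related genes or cell type markers (blue; number of tested genes in brackets, 1 probe set per gene), with a bar at each median. Adipocyte markers (median -1.09), matrix genes (-0.49) and endothelial markers (-0.37) lie further to the left than the members (-0.23), and a few genes are in more than 1 list.

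Several other cell types that can surround or carry Acta2 were measured beside it. Of 8 tested pericyte and stellate cell markers 5 were lower and 3 higher (median -0.06), led by Vim, the receptor gene Notch3 (0.41 ± 0.48), the receptor gene Pdgfra (-0.16 ± 0.21) and Mcam (-0.19 ± 0.30). Sums of intensity were taken over all genes of a list on the array, tested or not. For the 10 pericyte and stellate cell genes the sum was 3349.5 to 3672 in CF and 3368.5 to 3842 in controls, which overlap. Of 19 matrix genes of activated stellate cells 16 were lower (median -0.49), led by Col6a2 (-0.72 ± 0.22), Col6a3 (-1.50 ± 0.56), Fbln2 (-0.65 ± 0.26) and Lum (-0.49 ± 0.21), and the sums over 21 genes were 19733 to 28563 in CF and 25784 to 36628 in controls. Of 6 tested endothelial markers 5 were lower (median -0.37), led by Eng (-0.76 ± 0.28), Emcn (-0.78 ± 0.32), Tek (-0.40 ± 0.39) and Cdh5 (-0.34 ± 0.45). Over 10 endothelial genes all CF sums (1824 to 2476) lay below all control sums (2574 to 3092), but without Eng the sums overlapped, at 1232 to 1786 in CF and 1578 to 2009.6 in controls, a comparison chosen after seeing the data. Of 9 adipocyte markers 8 were lower (median -1.09), led by Aoc3, Adipoq (-3.26 ± 1.30), Agt (-1.09 ± 0.46) and Retn (-1.94 ± 0.84). In limma 0 genes passed in each of these 4 lists. At an unadjusted p under 0.05 there were 0 of 8, 4 of 19, 2 of 6 and 4 of 9 genes, beside 7.38% of all tested probe sets, with no set test.

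The adipocyte sum moved with Acta2 across the control arrays. It was 7472, 5054 and 5111 in CF replicates 1, 2 and 3, against 21823, 6453.5 and 11142 in control replicates 1, 2 and 3, so that controls had the same order, replicate 1, then 3, then 2, as for Acta2. The matrix sum followed the same order in controls, and so did the pericyte and stellate cell sum (3842, 3368.5 and 3463 in control replicates 1, 2 and 3). Within the latter sum, Notch3 read 566, 178 and 637 in these replicates, and the order of replicates 2 and 3 rested on it. The endothelial sum did not follow the order of Acta2 (3092, 3001 and 2574 in control replicates 1, 2 and 3), nor did the sums of the remaining lists. The acinar sum ran in the reverse order (701690, 969360 and 790610 in control replicates 1, 2 and 3). An order of 3 arrays is given as a description, with no test. In CF the order differed, with Acta2 highest in replicate 2 and the adipocyte sum highest in replicate 1. In pair 2, where the adipocyte sums were closest, the Acta2 log2 difference was -1.74, beside -3.78 in pair 1 and -2.94 in pair 3. Much of both sums in pair 2 came from Lep, at 3032 in CF replicate 2 and 3941 in control replicate 2, while Adipoq read 54.2 and 187. Whether fat, vessels or stellate cells in the dissected tissue had a part in the Acta2 difference was not tested. Of 10 intestinal epithelium markers on the array 0 were bright enough to test, with sums of 521.5 to 705 in CF and 574 to 918 in controls. The mesothelium list had 3 of 6 tested genes lower (median -0.16), led by Krt18 (0.62 ± 0.16), Wt1 (-0.91 ± 0.36), Upk3b (-0.37 ± 0.18) and Msln (-0.67 ± 0.54). Its median mixes both directions: the keratin genes Krt18, Krt8 (0.04 ± 0.22) and Krt19 (0.04 ± 0.34) were the higher ones, and Wt1, Upk3b and Msln the lower ones. Of the acinar genes 9 of 9 were slightly lower (median -0.17), led by Sycn (-0.30 ± 0.17). In limma 0 genes of either list passed, with 2 mesothelium and 0 acinar genes at an unadjusted p under 0.05. RNA quality was read from the control probe sets as Gapdh 3' over 5' intensity, which was 0.72 to 0.87 in CF and 0.80 to 1.45 in controls, where the highest ratio was that of control replicate 2, the control array with the lowest Acta2. The same ratio for Actb was 2.14 in CF replicate 2 and 2.16 in control replicate 2, within a range of 1.75 to 2.14 in CF and 1.74 to 2.16 in controls.

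**Figure D5:**
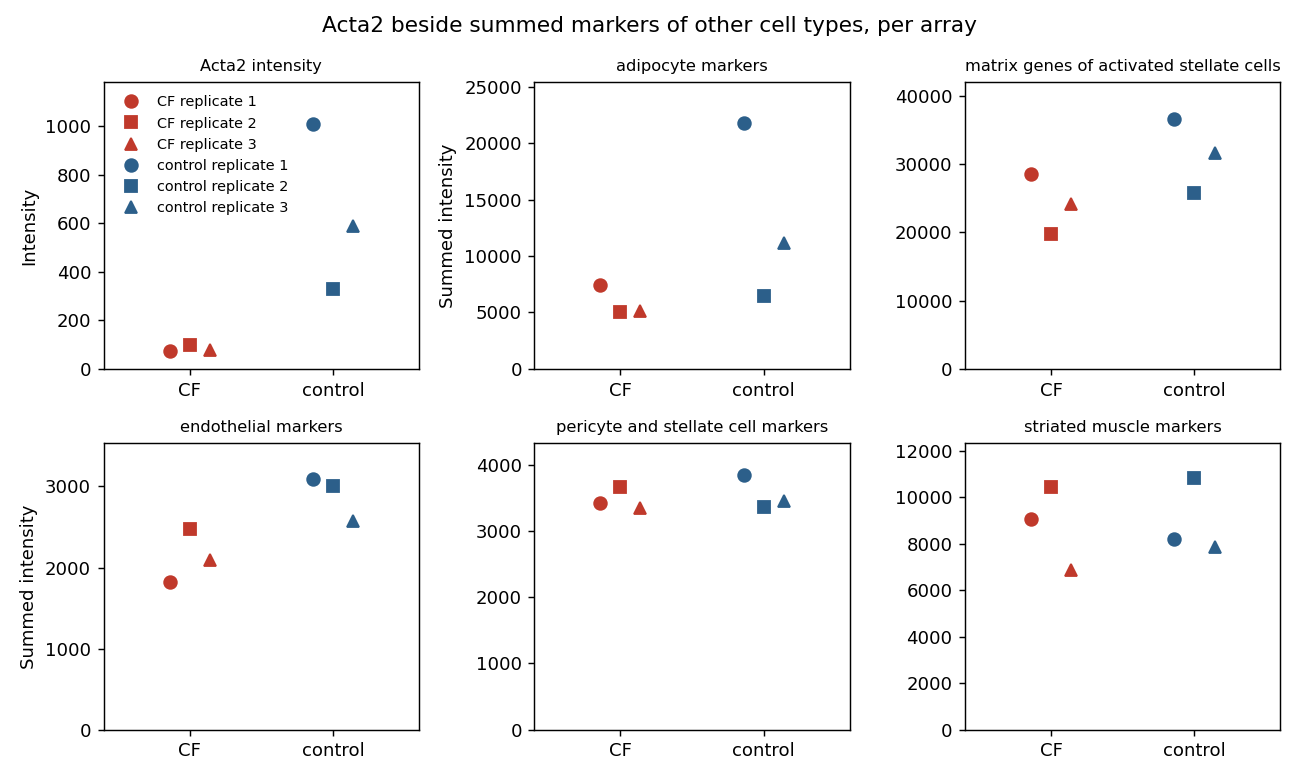
Intensity of Acta2 and summed intensity of 5 lists of cell type markers on the 3 CF arrays (red) and 3 control arrays (blue), by replicate. Acta2 and the endothelial sum do not overlap between the groups (the sum only with Eng included), and the adipocyte sum of control replicate 1, at 21823, is the highest of the 6 arrays.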

How the data were processed

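Total RNA of pancreas was extracted with TRIzol, per the labels' protocols, and read on 6 one-colour arrays. The files hold 1 deposited intensity per probe set, not log-transformed. The software and scaling target were not given in the sources used here. Array means after trimming 2% at each end were 500.27 to 500.3 across the arrays, so no further scaling was applied. Probe sets were named from the platform annotation: 10855 had 1 symbol, 396 several and 1237 none, and 10839 were matched to RefSeq gene names of GRCm38.p6 by gene identifier. Groups came from the genotype in the descriptions.

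The floor (20th percentile, 47.6), the filter (3 arrays above the 40th percentile, 140.2), and the removal of 66 control probe sets preceded limma 3.58.1 in R 4.3.3 (lmFit, eBayes with intensity trend). Adjusted p-values are Benjamini-Hochberg over all 7739 probe sets, and folds are on the floored log2 scale, which understates changes of dim genes. The code was tested on simulated data. Title suffixes were taken to pair arrays because, after subtraction of the group mean, same-suffix arrays correlated at 0.23 to 0.26 and others at -0.18 to -0.05. The deviations within a group cancel out, so positive same-suffix values push the others below them. The negative range is therefore no separate evidence of pairing. The precision is limited by 3 arrays per group, and animal and technical variation enter the p-values together.

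Members, the 11 lists and the rule for named genes (all members, up to 4 genes of smallest p per list, and the 8 and 4 most similar profiles) were chosen with earlier results of these data known. Lists are given by counts and medians, with 1 probe set per gene, the brightest. Alternatives covered scaling, floor, filter, variance model, array weights, replicate block, threshold and leaving out each array.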

Additional observations from a re-analysis of the deposited data

How the results depend on the processing

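Of 8 tested members, 7 stayed above an adjusted p of 0.05 in limma under every alternative run (0.37 to 0.999), and only Des changed direction, at -0.0094 with the floor at the 40th percentile and -0.26 without control replicate 3; leaving out other single arrays gave it up to 0.78. Acta2 kept its direction throughout (log2 difference -3.23 to -2.05, adjusted p 0.036 to 0.37). Its highest adjusted p in limma, 0.37, was that with no filter. Leaving out any single array other than control replicate 2 gave 0.15 to 0.32. Acta2 made the members' count 1 in place of 0 with array weights (-3.03, adjusted p = 0.036), at a threshold of 0.1, and without control replicate 2 (adjusted p = 0.037). The members' count ran from 0 to 1 when single arrays were left out. A filter at the 60th percentile (337.3) removed Acta2, Myl9 and Des and left 5 members. The replicate block changed no call of a member. With no filter, the untested probe sets differed by -0.31 (Myh11), 0.39 (Cnn1) and -0.13 (dimmer Tpm2), with adjusted p of 0.86 to 0.96.

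Over the whole table, 5 probe sets passed, against 10 with the replicate block, 10 with the floor at the 40th percentile, 12 with array weights, 3 with no intensity trend, 17 at a threshold of 0.1, and 0 with no filter in limma (773 at an unadjusted p under 0.05, among 12422 tested). Leaving out single arrays gave 1 to 11, with 1 in the absence of CF replicate 1 or of CF replicate 2, 8 without CF replicate 3 and 11 without control replicate 2. The causes were not tested. No detection calls were used, so dim values such as those of Acta2 in CF carry an unknown background.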
